A study of Rattus norvegicus with 4 samples.

Results

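The miR-322/miR-503 cluster is a run of microRNA (miRNA) hairpins on the rat X chromosome, described here in small RNA libraries of liver tissue labelled as hepatic fibrosis and of liver tissue labelled as normal. Its rows were taken by name: miR-322, miR-322* and miR-503, and every row without an asterisk named miR-351, miR-450a or miR-542. This gave 7 of the 680 miRNA names listed in each file, namely miR-322*, miR-322, miR-503, miR-351, miR-542-3p, miR-542-5p and miR-450a. The cluster was chosen by its position and by values of these same libraries, since miR-503 was already known to stand higher in the first fibrosis file than in the first normal one, so the ratios between these libraries are given as a description without a test.

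The labels give 2 groups, hepatic fibrosis and normal liver, with 2 replicates each, from whole-tissue RNA. The sources used here do not give the strain, sex or age of the rats, the agent that caused the fibrosis, or whether replicates were separate animals. Replicate 2 of fibrosis and replicate 2 of normal liver have equal values for all 680 names (0 differences). They are counted once and called the shared library, and its labels leave its tissue unsettled. The column header equals the sample title in the copy labelled fibrosis and differs from it in the copy labelled normal, which does not by itself settle the tissue. Replicate 1 of each group is called the fibrosis library and the normal library, so there are 3 distinct libraries. In whole tissue, fewer cells of a type and less of an RNA per cell cannot be told apart.

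Values are reads per 1000000 reads (RPM), scaled by the authors to 6951148 reads in the fibrosis library, 7070374 in the normal library and 6357069 in the shared library. 1 read was worth 0.1439 RPM in the fibrosis library, 0.1414 RPM in the normal library and 0.1573 RPM in the shared library, so whole reads could be recovered. Intervals below are 95% exact intervals that cover counting error only, and a count of 0 (taken as up to 3 reads) allows a level of up to 0.432 RPM in the fibrosis library, 0.424 RPM in the normal library or 0.472 RPM in the shared library. The hepatocyte markers miR-122, miR-192 and miR-194 summed to 251792 RPM in the fibrosis library, 272148 RPM in the normal library and 255470 RPM in the shared library, and none was at 0 in any library.

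A miRNA hairpin is cut into a short duplex, and either strand of it, the arm from the 5′ or from the 3′ side, can be loaded into an Argonaute protein and pair with messenger RNAs through its seed, bases 2 to 8. miR-322 is the rodent counterpart of human miR-424. Together with miR-503 it belongs to the wider miR-15/16 family by its 5′ arm, and members of that family repress cyclins and other drivers of the cell cycle. In the older naming used in the files an asterisk was meant to mark the less abundant arm, but it does not say which side of the hairpin the arm comes from.

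In the RefSeq annotation on the build GRCr8 the hairpins Mir322, Mir503, Mir351, Mir542 and Mir450a1 all lie on the minus strand of chromosome X and, with the annotated hairpin Mir450b-1, for which no row was used here, span 5309 bases between the protein-coding genes Hprt1 and Plac1. Read in the direction of transcription, Mir322 comes first at chrX:137726147-137726241, followed after 220 bases by Mir503 at chrX:137725856-137725926 and after a further 659 bases by Mir351 at chrX:137725116-137725196. These 3 hairpins lie within the bounds of LOC102550366, annotated as a long non-coding RNA. After a gap of 2861 bases comes Mir542 at chrX:137722176-137722254, and Mir450a1 ends the run at chrX:137720933-137721023. The submitters' processing notes name another build, rn5, so these coordinates are those of RefSeq and not of the files.

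The miR-322 hairpin is shown because the reads of its arms are compared below. Its RefSeq sequence (95 bases, minus strand, GRCr8) has both annotated mature arms in capitals, the 5′ arm at hairpin bases 23 to 44 and the 3′ arm at bases 61 to 80. The files name the arms miR-322 and miR-322* and neither they nor the RefSeq table pair these names with the 5′ or the 3′ arm, so the values below are given under the names of the files and are not assigned to a sequence.
Mir322 hairpin: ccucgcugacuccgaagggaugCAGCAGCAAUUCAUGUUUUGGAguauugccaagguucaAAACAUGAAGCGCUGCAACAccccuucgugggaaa

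The mature sequences of both miR-322 arms and of miR-503 are set against the other miRNAs of the seed family, with bases 2 to 8 in capitals.
rno-miR-322-5p: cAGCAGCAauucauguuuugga
rno-miR-322-3p: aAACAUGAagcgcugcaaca
rno-miR-503-5p: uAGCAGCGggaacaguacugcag
rno-miR-16-5p: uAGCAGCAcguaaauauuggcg
rno-miR-15b-5p: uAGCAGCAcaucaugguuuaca
rno-miR-195-5p: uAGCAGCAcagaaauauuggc
rno-miR-497-5p: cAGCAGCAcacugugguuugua

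Of 693 mature rat miRNA names in the RefSeq table, 6 carry the same bases 2 to 7 as miR-503-5p, and all 6 are on these lines. Over bases 2 to 8, miR-322-5p shares its seed with miR-16, miR-15b, miR-195 and miR-497, making 5 names, while miR-503-5p has a seed of its own because its base 8 differs. Over the whole length, seed included and counted from the 5′ end, 11 of 22 positions are identical between miR-322-5p and miR-503-5p, against 12 of 22 between miR-16-5p and miR-503-5p. The 3′ arm of miR-322 has a seed found in no other name. miR-503 in the files is taken as the 5′ arm, and so are miR-351 and miR-450a. This is an assumption, since an unstarred name does not say which side of the hairpin the arm comes from.

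The other hairpins of the cluster have seeds other than that of the family, and their listed arms are shown for that contrast.
rno-miR-351-5p: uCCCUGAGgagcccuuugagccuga
rno-miR-542-3p: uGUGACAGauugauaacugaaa
rno-miR-542-5p: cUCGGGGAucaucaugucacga
rno-miR-450a-5p: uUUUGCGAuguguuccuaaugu

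The seed of miR-351-5p is carried by 3 names of the table and is that of the miR-125 family, the seed of miR-450a-5p by 2, and each miR-542 arm has a seed of its own.

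Reads of the cluster came almost wholly from its first 2 hairpins. miR-322* was the most abundant row, with 50.8 RPM in the fibrosis library (353 reads, interval 45.6 to 56.4), 41.2 RPM in the normal library (291 reads, 36.6 to 46.2) and 62.6 RPM in the shared library (398 reads, 56.6 to 69.1). It was highest in the shared library and lowest in the normal library, and ranked 39th among all names in the fibrosis library, 43rd in the normal library and 33rd in the shared library. miR-503, a repressor of cell cycle genes, had 17.4 RPM in the fibrosis library (121 reads, 14.4 to 20.8), 9.05 RPM in the normal library (64 reads, 6.97 to 11.6) and 11.6 RPM in the shared library (74 reads, 9.14 to 14.6). It was highest in the fibrosis library. The shared library's counting interval overlapped those of both other libraries, and the intervals of the fibrosis and normal libraries did not overlap. The unstarred miR-322 had 4.17 RPM in the fibrosis library (29 reads, 2.79 to 5.99), 2.97 RPM in the normal library (21 reads, 1.84 to 4.54) and 4.09 RPM in the shared library (26 reads, 2.67 to 5.99). Its 3 intervals overlapped, so no order of the libraries could be seen in it at this depth.

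The order miR-322*, miR-503, miR-322 was the same in each of the 3 libraries, and within a library the intervals of these rows did not overlap. Levels of different miRNAs are set side by side here as reads, since mature miRNAs are of nearly equal length and each read stands for a whole molecule. How readily each sequence was ligated and amplified was not tested.

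**Figure D1:**
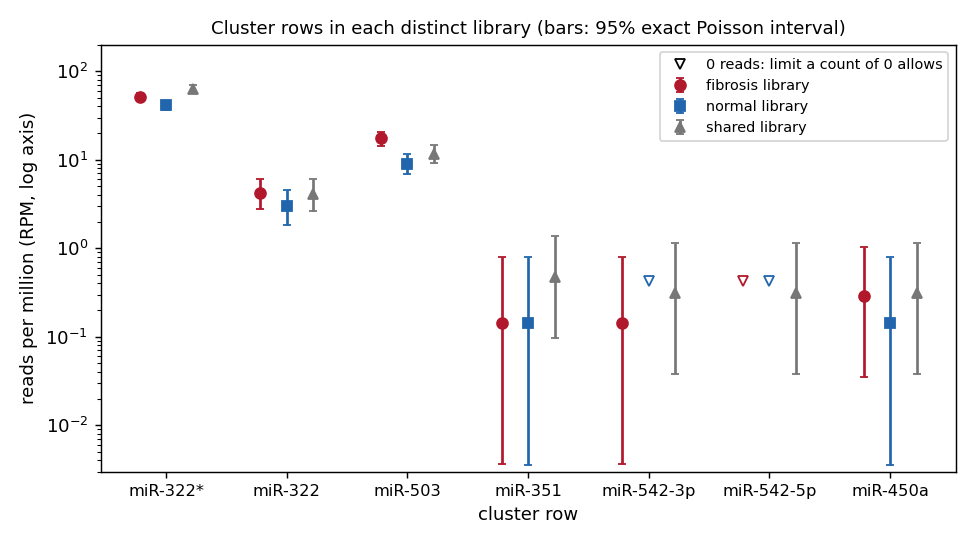
RPM (log axis) of the 7 cluster rows in the fibrosis library, the normal library and the shared library, with 95% exact Poisson intervals of the reads; open triangles mark rows with 0 reads at the limit a count of 0 allows. miR-322* lies between 41.2 and 62.6 RPM and miR-503 between 9.05 and 17.4 RPM, while miR-351, miR-542 and miR-450a have at most 3 reads in any library.

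The downstream hairpins were at the edge of detection. miR-351 had 1 read in the fibrosis library, 1 read in the normal library and 3 reads in the shared library. miR-450a had 2 reads in the fibrosis library, 1 in the normal library and 2 in the shared library. miR-542-3p, which has been reported to repress the apoptosis inhibitor survivin in human cells, had 1 read in the fibrosis library, 0 in the normal library and 2 in the shared library, and miR-542-5p had 2 in the shared library and 0 in the others. All of these rows were at or under the 3 reads that a count of 0 allows, so neither a fold between libraries nor an order among them is given.

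Together the 7 rows held 507 reads (72.9 RPM) in the fibrosis library, 378 reads (53.5 RPM) in the normal library and 507 reads (79.8 RPM) in the shared library. The 4 downstream rows made up 4 of these reads in the fibrosis library, 2 in the normal library and 9 in the shared library, which is 0.789% of the fibrosis library's cluster reads (0.215 to 2.01), 0.529% of the normal library's (0.0641 to 1.90) and 1.78% of the shared library's (0.815 to 3.34). miR-322* made up 69.6% of the cluster's reads in the fibrosis library (65.4 to 73.6), 77.0% in the normal library (72.4 to 81.1) and 78.5% in the shared library (74.7 to 82.0). The share of miR-503 was 23.9% in the fibrosis library (20.2 to 27.8), 16.9% in the normal one (13.3 to 21.1) and 14.6% in the shared one (11.6 to 18.0). That of the unstarred miR-322 was 5.72% in the fibrosis library (3.86 to 8.11), 5.56% in the normal one (3.47 to 8.37) and 5.13% in the shared one (3.38 to 7.42). miR-503 thus took a larger part of the cluster's reads in the fibrosis library than in the shared library, with intervals that did not overlap, and those of the fibrosis library and the normal library overlapped slightly.

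Of the arms of miR-322, the starred row held 353 of 382 reads in the fibrosis library, 291 of 312 in the normal library and 398 of 424 in the shared library. These are shares of 92.4% in the fibrosis library (89.3 to 94.9), 93.3% in the normal one (89.9 to 95.8) and 93.9% in the shared one (91.1 to 96.0), which differed by less than their counting intervals. The odds of an unstarred read in the fibrosis library were 1.14 times those in the normal library (0.612 to 2.15), so no difference in arm use between these libraries was detectable at this depth, nor is one of up to that interval's bounds shown to be absent.

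A starred row in the majority was uncommon in these libraries. Among 205 hairpins with both an unstarred and a starred row, 41 had at least 100 reads over both rows in every distinct library, and the starred row held most of the reads in 3 of them. These were miR-140 and miR-423, both with intervals that start at 99.6% or above in each library, and miR-322, the third in order. Next below stood miR-23b, at 15.3% in the fibrosis library, 20.6% in the normal library and 21.7% in the shared library, then miR-30a, at 22.3% in the fibrosis library, 18.5% in the normal one and 14.8% in the shared one. miR-22 followed with 12.3% in the fibrosis library, 11.5% in the normal one and 11.6% in the shared one. The median starred share of the 41 hairpins was 0.0622%, and 0 of them had a mean share between 25% and 90%. The intervals of miR-322 lay below those of miR-140 and miR-423, whose unstarred rows were nearly empty: miR-423 had 13 unstarred reads in the fibrosis library, 13 in the normal one and 9 in the shared one, and miR-140 had 1 in the fibrosis library and 0 in the others.

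**Figure D2:**
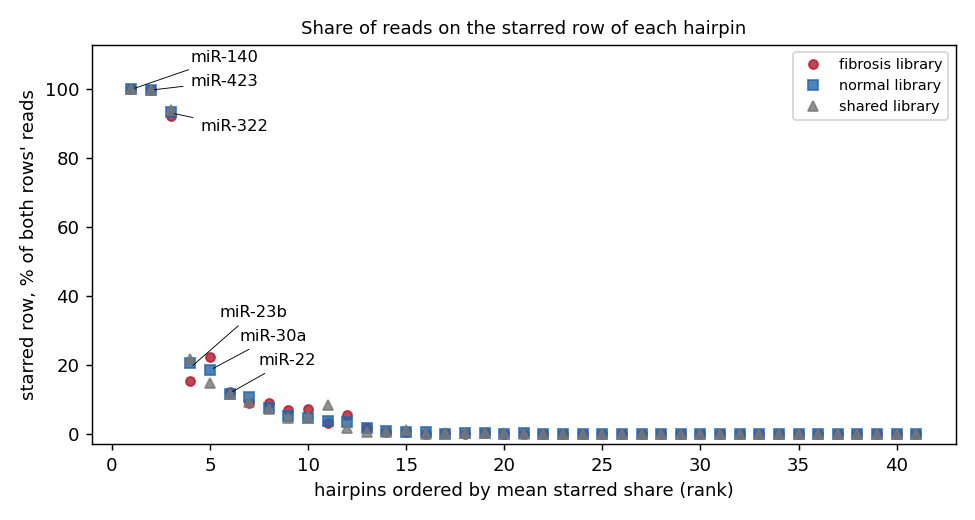
Share of reads on the starred row (%) for 41 hairpins with at least 100 reads over both rows in each of 3 libraries, ordered by their mean share, with 1 marker per library. miR-140, miR-423 and miR-322 stand above 90%, and the next, miR-23b, lies between 15.3% and 21.7%.

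Each of the 3 measurable rows stood higher in the fibrosis library than in the normal library. The ratio was 1.92 for miR-503 (1.41 to 2.65), 1.23 for miR-322* (1.05 to 1.45) and 1.4 for the unstarred miR-322 (0.774 to 2.59), the last with an interval that included 1. Over all 147 miRNAs averaging 1 RPM or more in this pair the median ratio was 0.916, and 52 were above 1. A ratio of at least 1.5 in this direction was reached by 12 of the 147 (8.16%), miR-503 being the fifth highest and the only cluster row among them. An interval wholly above 1 was found for 20 of the 147 (13.6%), with miR-503 and miR-322* among them. These values were in view when the cluster was chosen, each side is 1 library without a replicate check, and they describe the libraries rather than the conditions.

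Only in miR-322* did both ratios of the shared library have intervals that left out 1. Against the normal library it stood 1.52 times as high in miR-322* (1.30 to 1.78), 1.29 times in miR-503 (0.908 to 1.83) and 1.38 times in the unstarred miR-322 (0.745 to 2.57). The fibrosis library stood at 0.811 of the shared library in miR-322* (0.701 to 0.938), at 1.5 in miR-503 (1.11 to 2.02) and at 1.02 in the unstarred miR-322 (0.580 to 1.80). In miR-322* the shared library was therefore above both other libraries. Its value was nearer to that of the fibrosis library. With the shared library set over each of the others, the intervals of the 2 ratios overlapped, so this nearness was not resolved. In miR-503 the shared library's value was nearer to that of the normal library, but the intervals of its 2 ratios overlapped, so this was not resolved either. In the unstarred miR-322 both intervals included 1 and no place could be seen. Over all miRNAs averaging 1 RPM or more, the median ratio of the shared library over the normal one was 0.935, with 60 of 148 above 1, and miR-503 ranked 34th and miR-322* 20th from the top. For the fibrosis library over the shared one the median was 1.02, with 80 of 147 above 1, and miR-503 ranked 27th and miR-322* 107th. These pairs share libraries with each other and with the pair above, so they are not separate evidence.

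Ratios of reads within a library do not depend on how libraries are scaled. miR-503 had 34.3 reads per 100 reads of miR-322* in the fibrosis library (27.6 to 42.3), 22.0 in the normal library (16.5 to 28.9) and 18.6 in the shared library (14.3 to 23.9). The odds ratio was 1.56 for the fibrosis library over the normal library (1.10 to 2.23) and 1.84 for the fibrosis library over the shared library (1.32 to 2.58), and 0.846 for the shared library over the normal library (0.576 to 1.24). The intervals of the fibrosis and normal libraries overlapped, and those of the fibrosis and shared libraries did not. This ratio was computed after miR-503 was known to be high in the fibrosis library, so it describes 3 single libraries within counting error and supports nothing further. The unstarred miR-322 had 8.22 reads per 100 of miR-322* in the fibrosis library (5.42 to 12.0), 7.22 in the normal one (4.40 to 11.2) and 6.53 in the shared one (4.21 to 9.72), all overlapping.

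**Figure D3:**
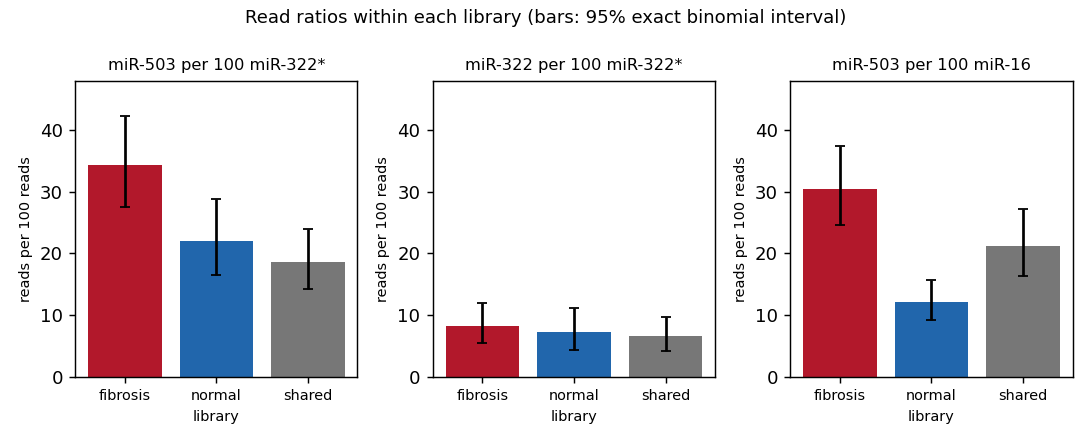
Reads of miR-503 per 100 reads of miR-322*, of miR-322 per 100 reads of miR-322* and of miR-503 per 100 reads of miR-16 in the fibrosis library, the normal library and the shared library, with 95% exact binomial intervals. miR-503 is highest relative to both partners in the fibrosis library, at 34.3 and 30.4, and the arms of miR-322 stay between 6.53 and 8.22.

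The 4 miRNAs of the same seed family outside the cluster each stood lower in the fibrosis library than in the normal one. That was the more common direction in this pair, in which only 52 of all 147 miRNAs averaging 1 RPM or more had a ratio above 1. miR-16, which restrains the cell cycle, had 57.3 RPM in the fibrosis library, 74.8 RPM in the normal library and 54.9 RPM in the shared library, a ratio of 0.765 for the fibrosis library over the normal library (0.670 to 0.873). miR-15b, made from the same locus as miR-16, had 5.90 RPM in the fibrosis library, 6.93 RPM in the normal library and 3.78 RPM in the shared library, a ratio of 0.851 (0.548 to 1.32). miR-195 and miR-497, neighbours on chromosome 10, had 24.0 and 15.97 RPM in the fibrosis library, 27.4 and 18.5 RPM in the normal one and 30.0 and 20.6 RPM in the shared one, with ratios of 0.876 (0.708 to 1.08) for miR-195 and 0.862 (0.663 to 1.12) for miR-497. The interval of miR-16 lay below 1 and those of the other 3 included 1 and the median of 0.916 over all 147 miRNAs. A row for miR-15a was not analysed here.

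Set against miR-16, miR-503 had 30.4 reads per 100 in the fibrosis library (24.6 to 37.4), 12.1 in the normal library (9.18 to 15.7) and 21.2 in the shared library (16.3 to 27.3). The odds ratio of the fibrosis library over the normal library was 2.51 (1.79 to 3.55). It was 1.43 for the fibrosis library over the shared library (1.03 to 2.01) and 1.75 for the shared library over the normal library (1.20 to 2.56). This ratio too was computed after miR-503 was known to be high in the fibrosis library. For the fibrosis library over the normal library it joins a higher miR-503 with a lower miR-16. For the fibrosis library over the shared library the ratio of miR-16 was 1.04 (0.901 to 1.21), an interval that included 1. The reads of miR-503 per 100 of miR-16 describe 3 single libraries within counting error and support nothing further. The 4 family members together held 717 reads in the fibrosis library, 903 in the normal library and 695 in the shared library, in each case more than the reads of the cluster.

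**Figure D4:**
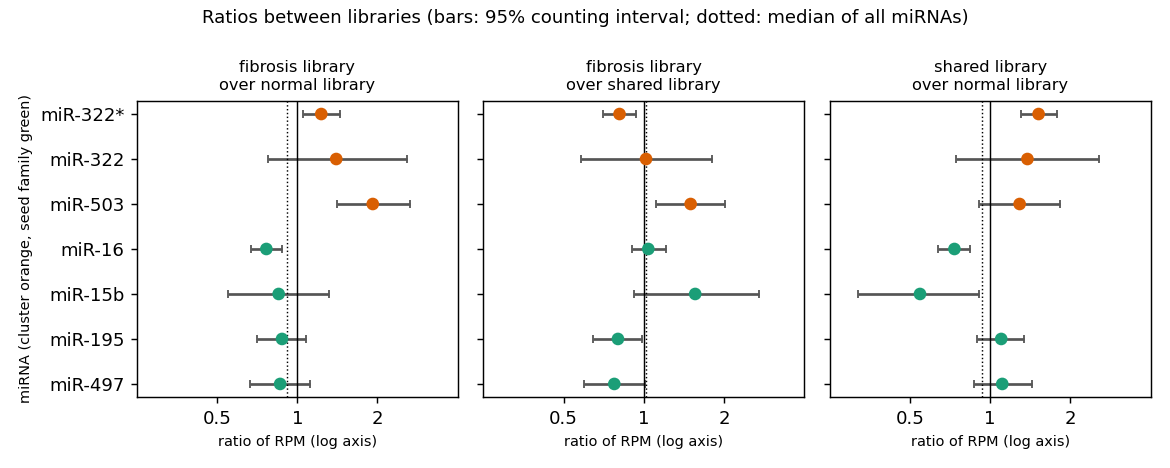
Ratio of RPM (log axis) between each pair of distinct libraries for the 3 measurable cluster rows (orange) and 4 miRNAs of the seed family outside the cluster (green), with 95% counting intervals; the dotted line is the median of all miRNAs averaging 1 RPM or more. In the fibrosis library over the normal library the cluster rows lie at 1.23, 1.4 and 1.92 and the others between 0.765 and 0.876.

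The position on chromosome X is shared with other miRNAs of these libraries. Among 14 other miRNAs averaging 1 RPM or more whose RefSeq hairpins all lie on chromosome X, 4 had a ratio above 1 for the fibrosis library over the normal library, with a median of 0.915. Among 106 miRNAs of the autosomes 40 were above 1, with a median of 0.920.

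The miRNAs most like each cluster row were sought by the distance of centred log2(RPM) over the 3 libraries, among 71 others averaging 10 RPM or more. miR-322* was nearest to let-7e, at a distance of 0.06, with 1695 RPM in the fibrosis library, 1454 RPM in the normal library and 2154 RPM in the shared library, followed by miR-24, miR-872, miR-130a and miR-27b at 0.14 to 0.18. The unstarred miR-322 was nearest to miR-27b and miR-872, at 0.06 and 0.08, and then to miR-99b, let-7b and miR-532-5p. It was itself under 10 RPM, with 21 to 29 reads in a library, so these distances lie within its counting error. miR-503 had no neighbour as close. Its nearest were miR-181a at 0.31, with 37.5 RPM in the fibrosis library, 25.5 RPM in the normal library and 25 RPM in the shared library, then miR-139-3p at 0.38, miR-181b at 0.41, let-7b at 0.43 and miR-33 at 0.44. With 3 libraries such likeness is a description of few points that share their depth and scaling.

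Summed markers of stellate and mesenchymal cells, leukocytes and endothelium ordered the libraries as miR-322* did, highest in the shared library and lowest in the normal one. The 5 stellate and mesenchymal miRNAs summed to 669 RPM in the fibrosis library, 466 RPM in the normal library and 1009 RPM in the shared library, with none at 0. Of these, 2 members were higher and 3 lower in the fibrosis library than in the normal library, so the sum did not follow most of its members. One of the lower ones, miR-143, had 432 reads in the fibrosis library, 688 in the normal library and 580 in the shared library. The 4 leukocyte miRNAs summed to 41.9 RPM in the fibrosis library, 28.0 RPM in the normal one and 59.6 RPM in the shared one, with 3 higher and 1 lower in the fibrosis library. The 2 endothelial miRNAs, both higher in the fibrosis library, summed to 7.77 RPM there, 6.51 RPM in the normal one and 10.9 RPM in the shared one. Neither list had a member at 0. Other lists ran otherwise: the 2 erythroid miRNAs summed to 2.88 RPM in the fibrosis library, 7.78 RPM in the normal one and 2.04 RPM in the shared one. The 5 biliary and epithelial ones summed to 12.1 RPM in the fibrosis library, 11.9 RPM in the normal one and 8.65 RPM in the shared one. Of these, 1 member was higher and 3 were lower in the fibrosis library than in the normal library, and miR-141 was at 0 in both. The 5 miRNAs of striated muscle, whose differentiating cells are known in mouse to make miR-322 and miR-503, summed to 19.7 RPM in the fibrosis library, 28.3 RPM in the normal one and 38.2 RPM in the shared one. Most of each sum was miR-499, with 121 reads in the fibrosis library, 162 in the normal library and 202 in the shared library. All 5 miRNAs were lower in the fibrosis library than in the normal one, and miR-133a and miR-133b were at 0 in the fibrosis and shared libraries. The part of these cells in the cluster's values was not tested.

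The comparison the labels imply, 2 fibrosis files against 2 normal files, called none of the 7 cluster rows. With Benjamini-Hochberg adjustment and a threshold of 0.05, limma on log2(RPM + 1) called 0 of the 294 miRNAs above 0 in any file (0%), while 4 passed that threshold unadjusted. On the recovered reads edgeR's quasi-likelihood test and DESeq2 each called 0 as well, and 0 passed it unadjusted in both. With the identical files counted once, limma again called 0. Then 36 of the 294 passed 0.05 unadjusted with the shared library as fibrosis and 27 with it as normal, and the smallest adjusted p-values were 0.295 and 0.248, against 1 with all 4 files. The group with 1 library left is there taken to vary as the other does. Because in the fit of 4 files the same library stands in both groups, each fitted difference is drawn towards 0, and its counts say little about the tissues.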

How the data were processed

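Per the labels' protocols, RNA was extracted from rat liver with TRIZOL and sequenced after Illumina small RNA preparation. CASAVA 1.4 and the build rn5 appear in the submitters' processing notes. The sources used here do not give the aligner, the version of the miRNA annotation or the handling of multiply matching reads. The 4 deposited files hold RPM computed by the authors for 680 names. Dividing by the value of 1 read gave whole reads for 100% of values above 0, within 0.01 reads.

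The cluster rows, lists and comparisons were chosen with earlier results of these data known. Ratios between libraries have 95% exact (Clopper-Pearson) intervals of the reads of 1 library among both, and odds ratios have exact conditional intervals (scipy 1.17.1, Python 3.11.15). A minimum mean of 1 RPM was used for background counts. The whole table was fitted with limma 3.58.1 in R 4.3.3, using log2(RPM + 1), a trended prior variance and Benjamini-Hochberg adjustment, and with edgeR 4.0.16 and DESeq2 1.42.0 on recovered reads as alternatives. The limma fit was tested on simulated data in which every library was separate. Here the same library stands in both groups, so that test does not speak for the fit of the 4 files. The miRNAs named are the cluster rows, the unstarred miR-15/16 family rows, the 5 miRNAs nearest each measurable cluster row and the 3 hairpins on each side of miR-322 in starred share (2 exist above it). The minimum of 1 RPM, the within-library ratios and the comparison by chromosome were added after the values were seen. Sequences and coordinates are those of RefSeq (GRCr8), in which all 5 hairpins of the cluster rows were found.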

Additional observations from a re-analysis of the deposited data

Results flagged for a closer look

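The starred row of the miR-351 hairpin lies outside the rows chosen by name. It had 0.575 RPM in the fibrosis library (4 reads, interval 0.157 to 1.47), above the 0.432 RPM that a count of 0 allows, against 0.141 RPM in the normal library (1 read, 0.00358 to 0.788). The shared library had 0.472 RPM (3 reads). The intervals overlap. Of the other rows outside the choice, miR-503* had 0 reads in the fibrosis library, 2 in the normal library and 2 in the shared library, and miR-450a* had 0 in each.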

How the results depend on the processing

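The ratio of the fibrosis library over the normal library kept its direction under 5 other scalings (reads on listed miRNAs with and without miR-122, TMM, DESeq2 size factors and upper quartile), at 1.83 to 2.02 for miR-503, 1.17 to 1.29 for miR-322* and 1.34 to 1.47 for miR-322, and with 1 RPM added, at 1.83, 1.23 and 1.30. Putting the shared library in place of the fibrosis library or of the normal library gave 1.29 and 1.5 for miR-503 and 1.38 and 1.02 for miR-322. For miR-322* it gave 1.52 in place of the fibrosis library, and the direction turned, to 0.811, in place of the normal library. The cause was not tested. The mean starred share of miR-322, 93.2%, lay between 92.8% and 93.6% when each distinct library was left out and was 93.2% from summed reads. The count of called miRNAs was 0 under every alternative run, including the identical files counted once on either side and each file left out (0 to 0). The number unadjusted under 0.05 moved more, from 4 with all 4 files to 36 and 27 with the identical files counted once as fibrosis and as normal. With the replicate number as a block (replicate block) it was 0, with 0 at an unadjusted p under 0.05. Replicate 2 is the same library in both groups, so this pairing adds no information. Without a filter on low values most residual variances were 0 and that fit is unreliable. Depth limits the 4 downstream rows, with at most 3 reads each per library.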
